A study of Danio rerio with 32 samples.

Results

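Interferon response genes are the genes that cells switch on after an interferon has bound its receptor. Their transcripts were followed in whole zebrafish larvae, 20 days after fertilization, that carried a mutation of pllp or none and were fed a low protein (LP) or a high protein (HP) diet. The list held 42 genes, and 35 of them matched a gene of the files by symbol without regard to case, out of 32520 genes in all. The other 7, among them ifi44d, ifi45, rnf213a, socs1a and zbp1, were not matched by that rule and are not analysed here as members. A row named SOCS1 exists that may be the listed socs1a. It is not in the counts of members, and its values are given at the end. Some symbols are printed in capitals because the gene table writes them so.

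The pllp gene codes for plasmolipin, a membrane protein involved in vesicle trafficking in the gut epithelium. Experiment 1 held 6 groups of 3 libraries each: the allele pd1116 on LP and on HP, the allele pd1245 on LP and on HP, and the wild-type strain EK on LP and on HP. Experiment 2 held 4 groups: pd1245 larvae described as adapted, with 4 libraries on LP and 3 on HP, and EK, with 4 libraries on LP and 3 on HP. The submitters describe pd1245 of experiment 1 as the newer allele, whose carriers survive poorly when food is restricted, and pd1116 as an older allele in which that defect has adapted. The labels do not say what either mutation does to the protein, whether the carriers were homozygous, or how many larvae, tanks or clutches stand behind a library, so each p measures only the spread between these libraries. In RNA from whole larvae, fewer cells of a type and less RNA per cell cannot be told apart.

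Interferons are secreted proteins that signal through receptors bound to JAK kinases. The kinases activate STAT proteins, which with IRF9 form a factor that binds interferon-stimulated response elements in promoters. The genes switched on there include more of the pathway's own parts (STATs, IRFs, the RNA sensors that detect virus), effectors that act against viruses (Mx proteins, ISG15, viperin, IFIT proteins), enzymes and transporters for presenting antigen, and brakes on the signal such as USP18 and SOCS1. Many are nearly silent in healthy tissue and rise steeply in infection, while others have a steady basal level that interferon lifts only moderately.

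The libraries of experiment 1 held 19838912 to 29147958 counts assigned to genes. Those of experiment 2 held 9788601 to 12929536, apart from replicate 2 of EK on HP with 3713048. In experiment 1, replicate 3 of pd1245 LP stood apart with a scaling factor of 0.832, against 0.971 to 1.06 in the other 17 libraries. Each member's result on pd1245 LP is given below with its value without that library where this changes a call. For genes of the other lists no value without it was taken. pllp itself lay at 6.46 to 8.02 CPM (counts scaled to a common library size) in pd1116 and at 3.39 to 10.2 CPM in pd1245, against 11.3 to 17.1 CPM in EK of experiment 1. In experiment 2 pllp lay at 5.40 to 7.71 CPM in adapted pd1245 and at 24.5 to 38.2 CPM in EK. Mutant and EK libraries did not overlap for pllp in either experiment.

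After a filter on low counts, 32 of the 35 interferon response genes were tested in experiment 1 and 17 in experiment 2. ifit9, ifit10 and socs1b were too low to be tested in either. In experiment 2 the effectors RSAD2, CMPK2, mxa, mxb, mxe, ifit8 and ifit14, the sensor DHX58, both helz2 genes and 5 others also missed the filter there, so experiment 2 gives no test of them. A gene is called where its adjusted p (edgeR quasi-likelihood F test, Benjamini-Hochberg adjustment over all genes tested) is below 0.05, with no minimum fold.

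**Figure D1:**
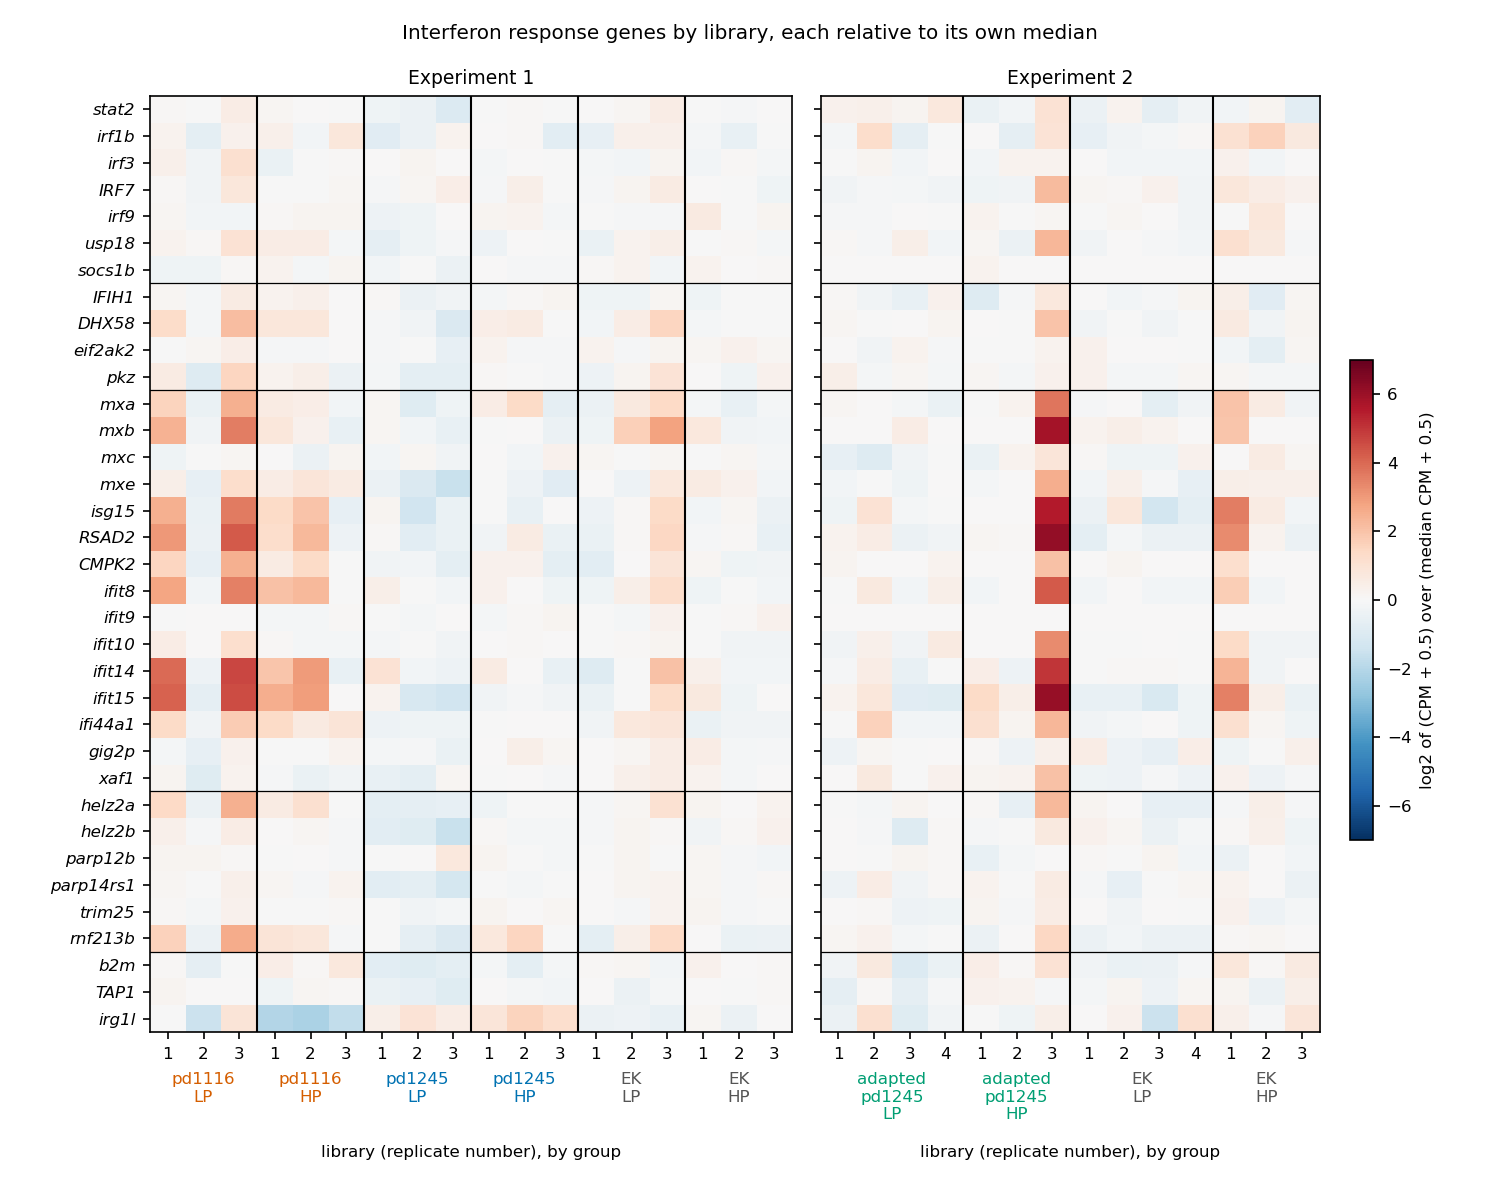
Each of the 35 interferon response genes (rows, grouped by role) in every library (columns, by group and replicate number); the colour is the log2 ratio of its CPM plus 0.5 to its own median over the experiment plus 0.5. Red columns of effectors stand in replicates 1 and 3 of pd1116 LP and in replicate 3 of adapted pd1245 HP. Some effectors are also red in replicate 1 of EK HP of experiment 2. In experiment 1 some are red in replicates 1 and 2 of pd1116 HP and in replicate 3 of EK LP. Pale blue runs through stat2, helz2b, parp14rs1, b2m and TAP1 in all 3 pd1245 LP libraries.

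The antiviral effectors were high in some libraries of a group and near their floor in others of the same group. ifit15, whose mammalian relatives bind viral RNA, lay at 24.4, 0.396 and 32.8 CPM in the 3 libraries of pd1116 LP, at 1.15, 0.154 and 0.0564 CPM in pd1245 LP, and at 0.511, 0.896 and 2.85 CPM in EK LP. RSAD2, which encodes viperin, an enzyme that makes a chain-terminating nucleotide, lay at 8.23, 0.297 and 20.3 CPM in pd1116 LP, at 0.656, 0.154 and 0.282 CPM in pd1245 LP, and at 0.275, 0.651 and 2.38 CPM in EK LP. Replicates 1 and 3 of pd1116 LP were high for both genes, replicate 2 lay below every EK LP library for ifit15 and within their range for RSAD2, and within EK LP replicate 3 was the highest.

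On HP the same 2 genes were again uneven within pd1116. ifit15 lay at 7.73, 10.0 and 0.913 CPM in pd1116 HP, at 0.687, 0.842 and 0.688 CPM in pd1245 HP, and at 1.78, 0.635 and 0.900 CPM in EK HP. RSAD2 lay at 2.00, 4.71 and 0.351 CPM in pd1116 HP, at 0.420, 1.11 and 0.275 CPM in pd1245 HP, and at 0.509, 0.635 and 0.245 CPM in EK HP. Replicates 1 and 2 of pd1116 HP were high, and replicate 3 lay within the range of EK HP.

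Peaks were shared by a few libraries, with the highest in one of them. In experiment 1, 13 members reached 5 or more times their own median, and all 13 had their highest value in replicate 3 of pd1116 LP. They were ifit8, ifit10, ifit14, ifit15, mxa, mxb, RSAD2, isg15, CMPK2, rnf213b, helz2a, DHX58 and ifi44a1, with peaks from 5.10 times the median for ifi44a1 to 53.9 times for ifit8. Some medians lay near 0, at 0.124 CPM for ifit8, 0.0919 CPM for ifit10 and 0.206 CPM for mxb. Such ratios depend on the median and do not rank the members by response. Of all 35 members, 23 were highest in that library. The share of all genes that were highest there was not taken. Some of the 13 passed the same mark elsewhere: 6 in pd1116 LP replicate 1, 3 in pd1116 HP replicate 1, 4 in pd1116 HP replicate 2, 3 in EK LP replicate 3 (ifit8, ifit14 and mxb) and 1 in EK LP replicate 2 (mxb). No member passed it in replicate 2 of pd1116 LP or in any library of pd1245. By contrast 7 members stayed below 1.5 times their median in every library: stat2, the STAT partner of the interferon factor; helz2b, a helicase with a paralog among the peaking genes; parp14rs1, an ADP-ribosyltransferase of the PARP14 family; trim25, an E3 ligase that activates RNA sensing; TAP1, a subunit of the peptide transporter for MHC class I; the kinase eif2ak2 (PKR), which stops translation when it binds double-stranded RNA; and mxc.

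The summed level of the 35 members followed the same libraries. It was 309, 170 and 467 CPM in pd1116 LP, 162, 157 and 141 CPM in pd1245 LP, and 187, 211 and 277 CPM in EK LP. On HP it was 230, 239 and 203 CPM in pd1116, 211, 226 and 199 CPM in pd1245, and 209, 186 and 199 CPM in EK. The pd1245 LP libraries were the 3 lowest of experiment 1, and the pd1116 LP group held the highest library together with one below every EK library.

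Relatives and neighbours among the members did not all move together. Among the Mx proteins, dynamin-like GTPases that trap viral particles, mxb peaked at 38.7 times its median and mxa at 9.76 times, while mxe peaked at 2.69 times and mxc at 1.34 times. Their medians differed too, at 0.206 CPM for mxb, 0.533 CPM for mxa, 2.27 CPM for mxe and 1.21 CPM for mxc. mxa and mxb are neighbours in the RefSeq annotation (GRCz12tu), as are mxc and mxe. RSAD2 and CMPK2, a mitochondrial nucleotide kinase, are neighbours as well and peaked at 35.5 and 10.7 times. The neighbours ifit14 and ifit15 peaked at 46.4 and 36.5 times. pkz, a fish kinase related to PKR that binds Z-form nucleic acid, peaked at 3.39 times against 1.41 times for its neighbour eif2ak2. How reads shared by near-identical Mx, IFIT, helz2 or ifi44 copies were counted is not given in the sources used here, so levels of single copies are uncertain.

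**Figure D2:**
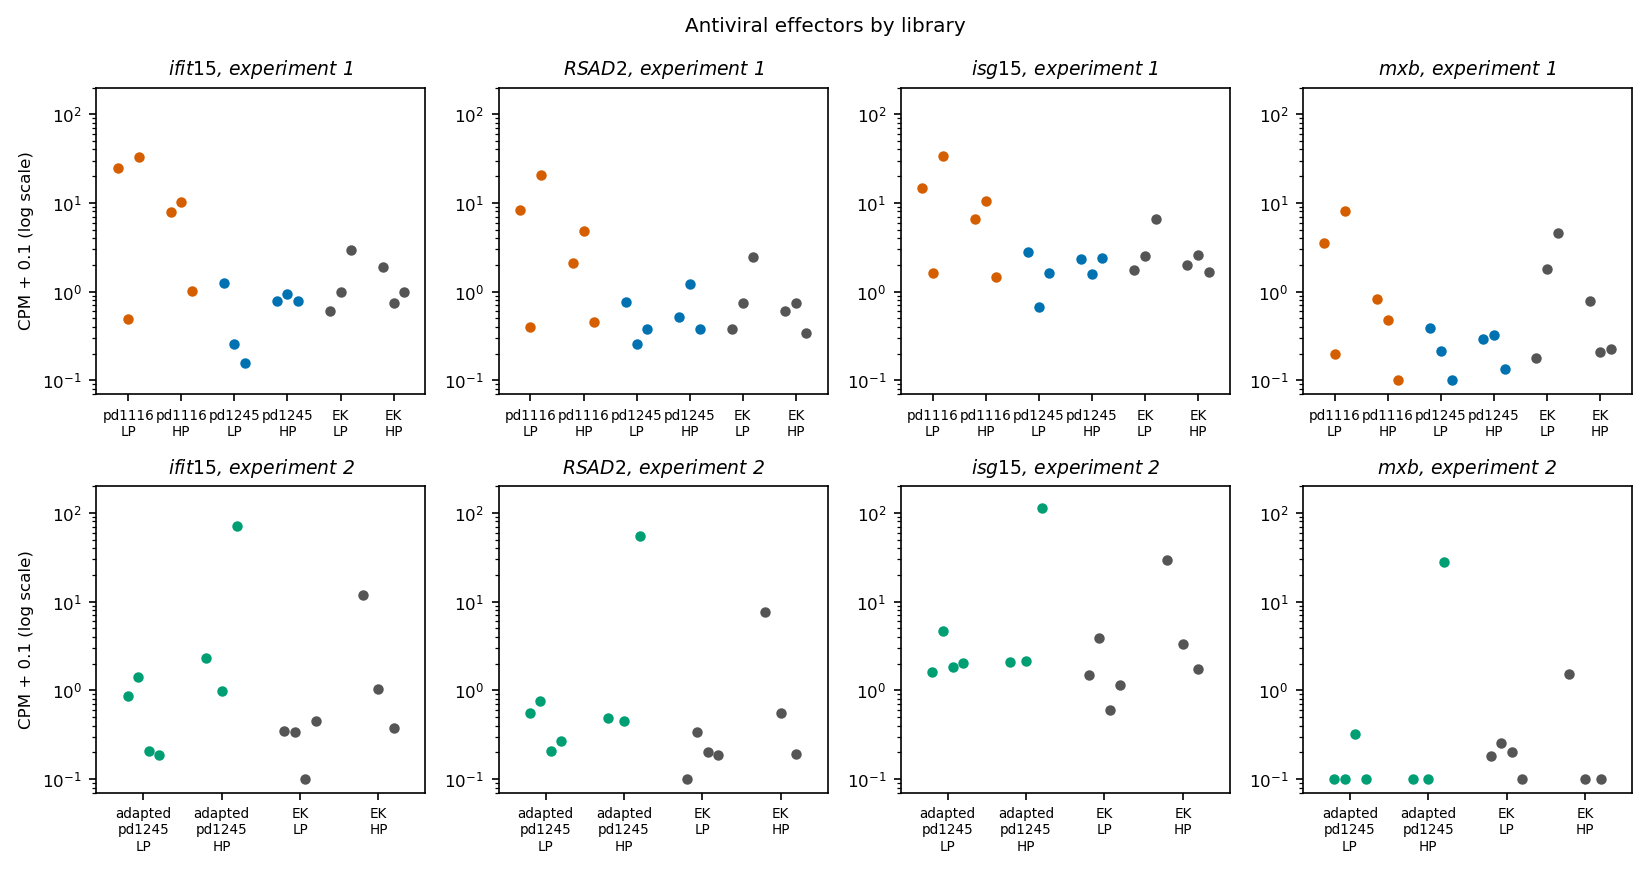
CPM plus 0.1 on a log axis for 4 antiviral effectors in every library (points, replicate order left to right) of experiment 1 (top) and experiment 2 (bottom); isg15 and mxb are added as examples chosen after their values were seen. In pd1116 LP replicates 1 and 3 lie above replicate 2, and in adapted pd1245 HP replicate 3 lies alone above all other libraries of its experiment.

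Most of the interferons themselves were at or near 0. ifnphi1, ifnphi2, ifnphi4, ifng1 and ifng1r, all zebrafish interferons, did not exceed 8 counts in any library of either experiment. ifnphi3 was low but passed the filter in both, at up to 0.687 CPM in experiment 1 and 1.38 CPM in experiment 2. Markers of immune cells in the 3 pd1116 LP libraries, in replicate order, summed to 102, 102 and 128 CPM for macrophages, to 65.6, 65.3 and 91.6 CPM for neutrophils, and to 167, 170 and 160 CPM for T and NK cells. Replicate 3 was highest for the first 2 lists and lowest for the last, and the spread was smaller than that of the members. The part of immune cells in the peaks was not tested.

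On the low protein diet 8 members fell in pd1245 larvae against EK and 1, irg1l, rose, out of 32 tested. Of the 7 members that stayed below 1.5 times their median in every library, stat2, helz2b, parp14rs1 and TAP1 fell. The others, trim25, eif2ak2 and mxc, did not pass the test. In this comparison 31.8% of all genes tested were called, with 15.8% lower and 16% higher, so the members' share called lay near that of all genes. Of the 8 that fell, 6 had no overlap of libraries, as did 96.6% of all genes called lower (15.3% of those tested). The median log2 fold change was −0.83 over the 32 members, 29 of them negative, against 0.01 over all genes tested. EK LP replicate 3 enters this median. Of the 50 tested genes with the largest ratio there to the median of the other libraries, 9 were members. No median was taken without that library.

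parp14rs1 lay at 7.30, 7.64 and 5.08 CPM in pd1245 LP, against 12.7, 14.2 and 14.8 CPM in EK LP (log2 fold change −1.04, SE 0.14, adjusted p = 6.82e-05). helz2b lay at 7.26, 6.87 and 3.89 CPM in pd1245 LP, against 12.1, 14.6 and 13.2 CPM in EK LP (−1.12, SE 0.19, adjusted p = 4.01e-04). stat2 lay at 46.4, 43.9 and 29.9 CPM in pd1245 LP, against 59.0, 63.5 and 84.0 CPM in EK LP (−0.78, SE 0.16, adjusted p = 0.00134). For these 3 genes every pd1245 LP library lay below every EK LP library, and the lowest was replicate 3, which stood apart. All 3 were called under each alternative tried, also without that library.

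The genes of antigen presentation on the list moved likewise. b2m, the light chain of MHC class I, lay at 3.61, 3.32 and 3.89 CPM in pd1245 LP, against 6.72, 7.00 and 5.62 CPM in EK LP (−0.84, SE 0.21, adjusted p = 0.00542), and was called under each alternative tried. TAP1 lay at 2.26, 2.04 and 1.58 CPM in pd1245 LP, against 3.38, 2.28 and 2.94 CPM in EK LP (−0.53, SE 0.19, adjusted p = 0.0392). The groups did not overlap for either gene, by a narrow margin for TAP1. The TAP1 call was lost without pd1245 LP replicate 2 (adjusted p = 0.0628) or 3 (0.12), and without EK LP replicate 1 (0.164) or 3 (0.0874). It was also lost in a fit of these groups alone (0.142), with no filter (0.0517) and with DESeq2 (0.0503).

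Of the effectors, 3 were called lower. mxe lay at 1.56, 0.887 and 0.452 CPM in pd1245 LP, against 2.28, 1.67 and 4.11 CPM in EK LP (−1.42, SE 0.50, adjusted p = 0.0367). mxb lay at 0 to 0.287 CPM in pd1245 LP and at 0.0786 to 4.45 CPM in EK LP (−3.77, SE 1.35, adjusted p = 0.0397). xaf1, which in mammals promotes cell death by opposing XIAP, lay at 2.04 to 3.89 CPM in pd1245 LP and at 3.61 to 5.41 CPM in EK LP (−0.75, SE 0.28, adjusted p = 0.0444). The groups overlapped for mxb and xaf1 and not for mxe, and all 3 calls were lost without EK LP replicate 3, with adjusted p of 0.186 for mxe, 0.225 for mxb and 0.149 for xaf1, and without pd1245 LP replicate 2, with 0.0922, 0.0977 and 0.156. The mxe call was also lost without EK LP replicate 1 or pd1245 LP replicate 3 (adjusted p = 0.109 without the last), the mxb call without EK LP replicate 2 or pd1245 LP replicate 1 or 3 (0.0875 without the last), and the xaf1 call without EK LP replicate 2 or pd1245 LP replicate 1. In a fit of these groups alone the calls of mxe (0.0741) and xaf1 (0.0977) were lost. mxb did not pass the filter on low counts in that fit, so it was not tested there. With the replicate number as a block the mxb call was lost (0.0507).

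The remaining 23 members tested did not pass. The RNA sensors showed no common size of difference: DHX58 (LGP2) had a log2 fold change of −1.28 and IFIH1 (MDA5) of −0.03. Among the IRF transcription factors the values were −0.06 for IRF7, −0.17 for irf9, −0.43 for irf1b and 0.13 for irf3. 9 members were called in all. Without EK LP replicate 3 or without pd1245 LP replicate 2 there were 4.

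**Figure D3:**
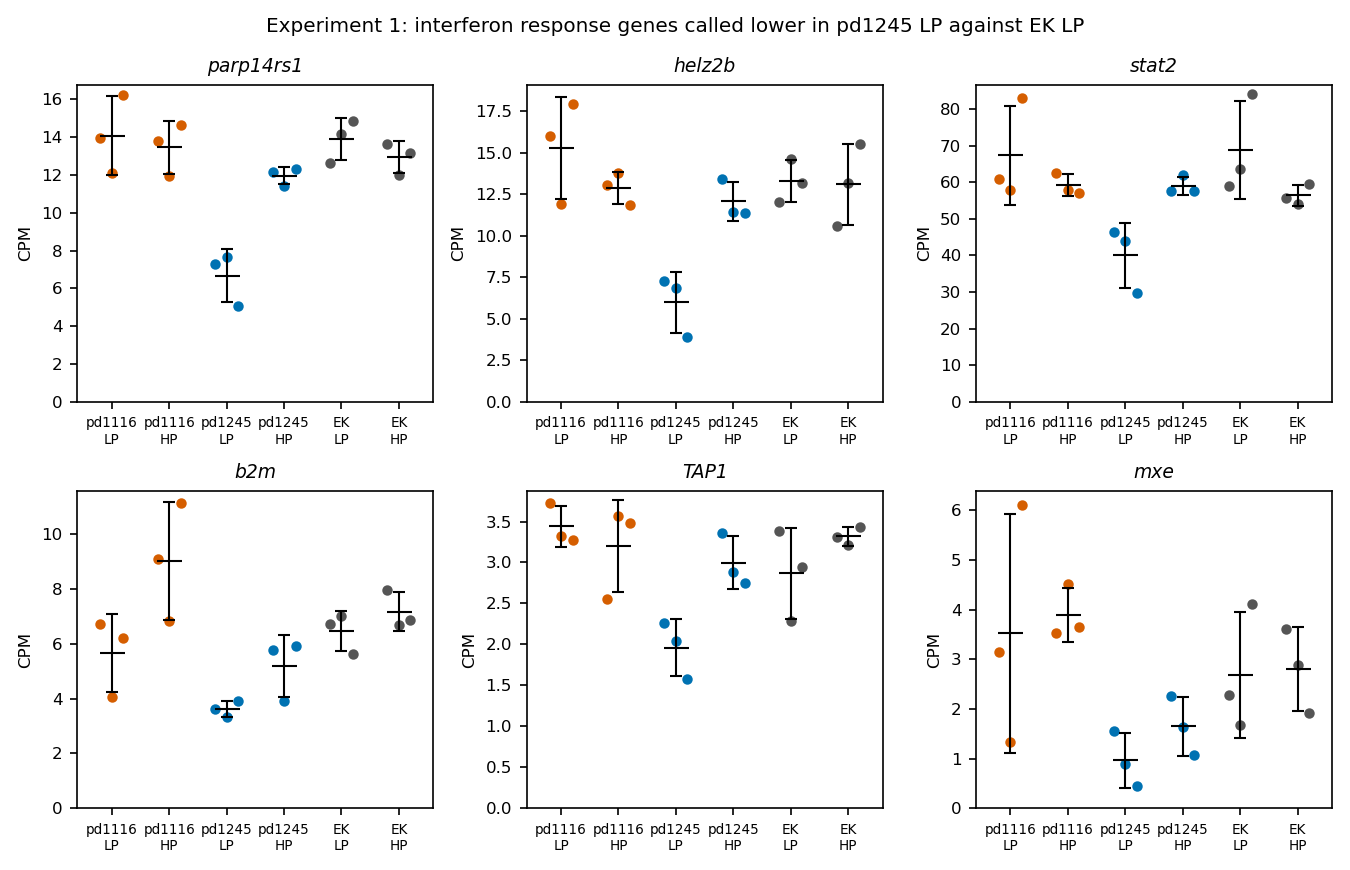
CPM by group in experiment 1 for the 6 members that were called lower in pd1245 LP against EK LP with no overlap of libraries; points are libraries, bars the mean ± SD (n = 3). For parp14rs1, helz2b and stat2 the pd1245 LP libraries lie below those of all 5 other groups, while mxe spreads widely in pd1116 LP.

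parp14rs1, helz2b and stat2 were lower in pd1245 on LP than in the same line on HP as well. The LP values are given above. parp14rs1 lay at 12.1, 11.4 and 12.3 CPM in pd1245 HP (log2 fold change of LP over HP −0.83, SE 0.14, adjusted p = 0.00162), and helz2b at 13.4, 11.4 and 11.4 CPM (−0.99, SE 0.19, adjusted p = 0.00325). stat2 lay at 57.5, 61.9 and 57.7 CPM in pd1245 HP (−0.56, SE 0.16, adjusted p = 0.0207), and TAP1 at 3.36, 2.88 and 2.75 CPM (−0.60, SE 0.19, adjusted p = 0.0344). These 4 members fell and none rose, where 19.1% of all genes tested were called and 9.78% were lower. Libraries of the 2 diets did not overlap for any of the 4, as for 93.3% of all genes called lower (9.12% of those tested). Without pd1245 LP replicate 3 the calls of stat2 (adjusted p = 0.0807) and TAP1 (0.116) were lost, and without pd1245 HP replicate 3 likewise (0.0626 and 0.0682), which left 2 members called each time. stat2 was also lost without pd1245 HP replicate 2 (0.0505), and TAP1 without pd1245 HP replicate 1 (0.112) or pd1245 LP replicate 2 (0.0548). In a fit of these 2 groups alone all 4 calls were lost, with adjusted p of 0.0993 for parp14rs1, 0.105 for helz2b, 0.146 for stat2 and 0.182 for TAP1.

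The diet difference itself differed between lines for the same 3 genes. The difference between LP and HP was more negative in pd1245 than in EK, with an interaction of −0.93 on the log2 scale for parp14rs1 (SE 0.20, adjusted p = 0.0129), of −1.01 for helz2b (SE 0.27, adjusted p = 0.0344) and of −0.84 for stat2 (SE 0.22, adjusted p = 0.0334). These were 3 of 32 members, all lower, where 5.7% of all genes tested were called, 3.4% lower. parp14rs1 kept its call under each alternative tried. helz2b and stat2 lost theirs, which left 1 member called, without any one of EK HP replicates 1 and 2, EK LP replicates 2 and 3, and pd1245 HP replicates 1 and 3. Their adjusted p then reached 0.0888 for helz2b, without EK LP replicate 2, and 0.0913 for stat2, without EK LP replicate 3. Both calls were also lost with the replicate number as a block (0.0533 for helz2b and 0.051 for stat2) and in a fit of these groups alone (0.0748 and 0.0678). The same interaction between the alleles, pd1116 against pd1245, which uses the same pd1245 libraries, gave 1.24 (SE 0.26, adjusted p = 0.0409) for helz2b and 0.90 (SE 0.20, adjusted p = 0.0419) for parp14rs1, where 0.616% of all genes were called, 0.484% higher. irg1l was the third member called there, and is described below. None of the 3 was called in that contrast without pd1116 HP replicate 1, 2 or 3, pd1116 LP replicate 1 or 3, or pd1245 HP replicate 3, and 1 was without pd1245 HP replicate 1 or 2. In a fit of these groups alone none was called, and with the replicate number as a block irg1l alone was (adjusted p = 0.065 for helz2b and for parp14rs1).

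In EK no member was called between diets, 0 of 32 by edgeR's quasi-likelihood test and 0 by DESeq2, with 3 at an unadjusted p under 0.05 (ifi44a1, mxb and irf9). Only 0.154% of all genes were called there. The diet contrast in EK had a median log2 fold change of 0.29 over the members, against −0.0046 over all genes tested, and 25 of 32 were positive. EK LP replicate 3 enters this median too.

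Between the alleles on LP the interferon response genes differed most widely, with 20 of 32 higher in pd1116 than in pd1245 and none lower. The 20 include mxb, ifit8 and CMPK2, which did not pass the filter on low counts in a fit of these groups alone. 20.2% of all genes tested were called in this comparison, 9.89% higher. The median log2 fold change was 1.13 over the members and −0.01 over all genes tested. The libraries overlapped for 12 of the 20 called members and not for 8, 40% of them. Over all genes called higher, 94.7% had no overlap (9.37% of those tested).

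The 8 members without overlap included 5 of those lower in pd1245 LP than in EK LP. parp14rs1 lay at 13.9, 12.1 and 16.2 CPM in pd1116 LP, against the 5.08 to 7.64 CPM of pd1245 LP given above (log2 fold change 1.07, SE 0.14, adjusted p = 8.41e-05). helz2b lay at 16.02, 11.9 and 17.97 CPM in pd1116 LP, against 3.89 to 7.26 CPM in pd1245 LP (1.33, SE 0.19, adjusted p = 1.86e-04), and stat2 at 61.0, 57.9 and 83.0 CPM, against 29.9 to 46.4 CPM (0.75, SE 0.16, adjusted p = 0.00369). pd1116 LP lay close to EK LP for these 3 genes, with log2 fold changes against EK of 0.03 for parp14rs1, 0.21 for helz2b and −0.03 for stat2, none of them called.

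TAP1 lay at 3.73, 3.32 and 3.28 CPM in pd1116 LP (0.79, SE 0.19, adjusted p = 0.00796) and b2m at 6.73, 4.06 and 6.21 CPM (0.66, SE 0.21, adjusted p = 0.0347). All pd1116 LP libraries lay above those of pd1245 LP for both genes, for b2m with replicate 2 close to them. helz2a lay at 16.99, 4.36 and 36.3 CPM in pd1116 LP, against 3.61, 3.78 and 3.84 CPM in pd1245 LP (2.38, SE 0.50, adjusted p = 0.0036). The remaining 2 were ifi44a1 (2.27, adjusted p = 0.00641) and usp18, the protease that takes ISG15 off its targets, at 1.45, 1.24 and 2.83 CPM in pd1116 LP, against 0.574, 0.849 and 1.07 CPM in pd1245 LP (adjusted p = 0.0293). The b2m call was lost without pd1116 LP replicate 1 (adjusted p = 0.124) or 3 (0.105), or pd1245 LP replicate 1 (0.0515) or 2 (0.0823). The usp18 call was lost without pd1116 LP replicate 3 (0.211), or pd1245 LP replicate 1 (0.0824) or 2 (0.0536).

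The 12 members with overlapping libraries were effectors and sensors that were uneven within pd1116 LP. ifit15 had the smallest p among them (log2 fold change 5.32, SE 1.11, adjusted p = 0.00353), followed by RSAD2 (4.72, SE 1.08, adjusted p = 0.00636). The others were isg15, a ubiquitin-like modifier (3.41), DHX58 (1.99), rnf213b, an E3 ligase (2.44), mxa (3.00), mxb (4.71), mxe (1.85), ifit8 (4.31), ifit14 (4.11), CMPK2 (3.19) and pkz (1.55). Without replicate 3 of pd1116 LP 9 of the members were called, and of the 12 above only ifit15 and RSAD2 kept their calls. Without replicate 3 of pd1245 LP the calls of mxa (adjusted p = 0.0561), CMPK2 (0.0552) and pkz (0.102) were lost. The mxa call was also lost without pd1245 LP replicate 2 (0.0784), and the pkz call without that library (0.101) or pd1116 LP replicate 1 (0.0635). In a fit of these 2 groups alone, 2 were called, helz2b and parp14rs1. mxb, ifit8 and CMPK2 did not pass the filter on low counts in that fit and were not tested there. They passed it in the common fit of all groups, where libraries outside this comparison also count toward the filter. The pkz call was lost with the replicate number as a block too (0.0623).

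Against EK on LP, 2 members were higher in pd1116, and none lower, where 6.68% of all genes were called and 2.82% were higher. They were ifit15 (log2 fold change 3.79, SE 0.94, adjusted p = 0.0194) and RSAD2 (3.17, SE 0.91, adjusted p = 0.0413), whose libraries are given above. Both overlapped with EK LP through replicate 2 of pd1116. Neither was called without pd1116 LP replicate 1 (adjusted p = 0.0565 for ifit15 and 0.0718 for RSAD2), pd1116 LP replicate 3, or EK LP replicate 1 or 2, each of which left 0 members called. The RSAD2 call was also lost with the replicate number as a block (0.0659) and with DESeq2 (0.0689). Without pd1116 LP replicate 2 there were 10, and without pd1245 LP replicate 3, which is in neither group but enters the common spread, there were 5. ifit14 (3.29), isg15 (2.30) and ifit8 (3.09) came next, with adjusted p of 0.0619, 0.0685 and 0.0704.

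**Figure D4:**
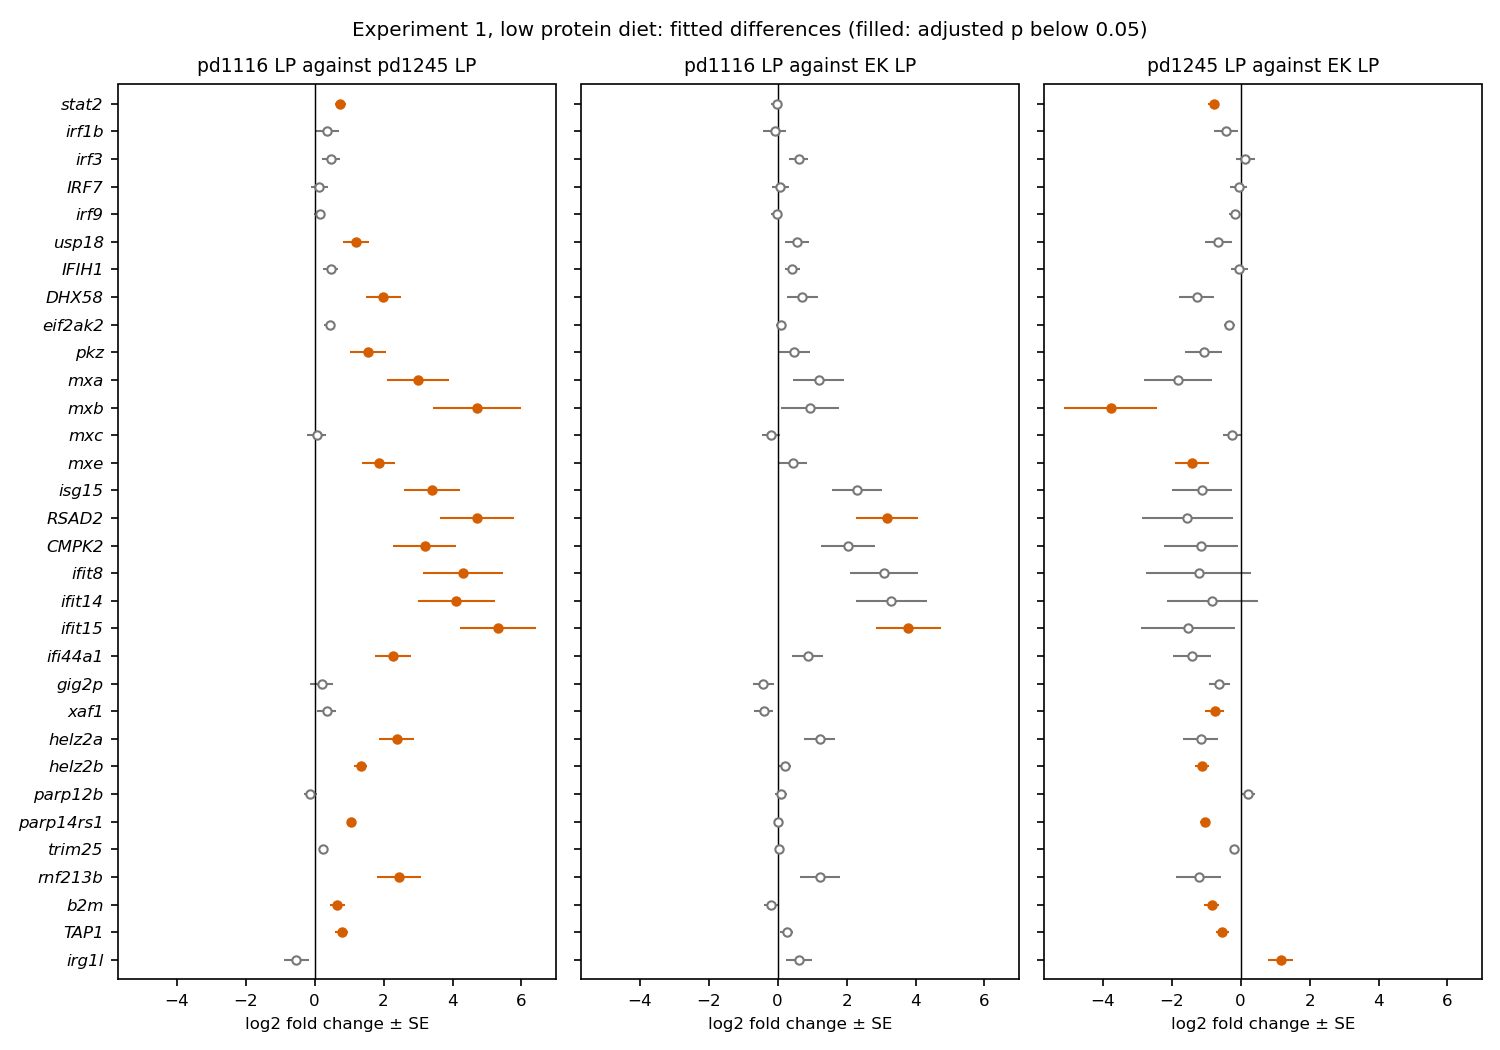
Log2 fold change ± SE of the 32 tested members (rows) in the 3 comparisons on LP in experiment 1, which share libraries with one another; filled points were called (adjusted p below 0.05). Most members lie right of 0 in pd1116 against pd1245 and left of 0 in pd1245 against EK, and the effectors carry the widest errors.

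On the high protein diet few interferon response genes differed between lines. In pd1116 HP, 1 member rose against EK HP and 1 fell, where 2.9% of all genes were called, 1.27% higher and 1.63% lower. ifi44a1, of the interferon-induced IFI44 family, lay at 2.68, 1.44 and 1.83 CPM in pd1116 HP, against 0.382, 0.529 and 0.532 CPM in EK HP (log2 fold change 2.02, SE 0.51, adjusted p = 0.0375). The groups did not overlap, but the call was lost without any 1 of the 6 libraries, with adjusted p from 0.0505 to 0.168. irg1l was the member that fell. ifit8, ifit15 and ifit14 had log2 fold changes of 4.74, 2.50 and 2.78 there, with adjusted p of 0.115, 0.243 and 0.319.

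In pd1245 HP, irg1l rose against EK HP and no other member was called, where 4.16% of all genes were called, 1.63% higher. parp14rs1, helz2b and stat2 averaged 12.0 ± 0.471, 12.1 ± 1.18 and 59.0 ± 2.45 CPM in pd1245 HP, against 12.9 ± 0.853, 13.1 ± 2.45 and 56.4 ± 2.82 CPM in EK HP (SD, n = 3 each). None of the 3 was called, with log2 fold changes of −0.11 for parp14rs1, −0.12 for helz2b and 0.06 for stat2.

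Between the alleles on HP, b2m was higher and irg1l lower in pd1116, where 11.9% of all genes were called, 5.96% higher and 5.91% lower. b2m lay at 9.09, 6.84 and 11.13 CPM in pd1116 HP, against 5.77, 3.90 and 5.92 CPM in pd1245 HP (0.79, SE 0.20, adjusted p = 0.0125), with no overlap. In EK HP it lay at 7.97, 6.67 and 6.87 CPM. The call was lost without pd1116 HP replicate 3 (adjusted p = 0.0898) or pd1245 HP replicate 2 (0.0717), and without pd1245 HP replicate 2 irg1l alone was called. Without pd1245 LP replicate 3 in the common fit there were 5 called.

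In pd1116, b2m was lower and irg1l higher on LP than on HP, where 6.79% of all genes were called, 2.76% higher and 4.04% lower. b2m lay at 6.73, 4.06 and 6.21 CPM on LP, against 9.09, 6.84 and 11.13 CPM on HP (−0.67, SE 0.20, adjusted p = 0.0472). The diets did not overlap, but the call was lost without any one of the 6 libraries except pd1116 HP replicate 2, with an adjusted p of up to 0.238, without pd1116 HP replicate 3. irg1l alone was called without pd1116 HP replicate 1 or 3, or pd1116 LP replicate 1 or 3. Without pd1116 LP replicate 2, 6 members were called. The interaction of diet and line between pd1116 and EK was called for no member, 0 of 32 by edgeR, with 1 at an unadjusted p under 0.05 and 1 by DESeq2, where 0.0044% of all genes were called. Without pd1116 LP replicate 2 or pd1245 LP replicate 3, 1 member was called there.

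irg1l had a pattern of its own. The gene is related to mammalian Irg1 (Acod1), whose enzyme makes itaconate in activated macrophages, and it was called in 5 of the 13 pairwise comparisons, more than any other member. On HP it lay at 1.78, 1.52 and 2.32 CPM in pd1116, at 15.999, 26.7 and 20.9 CPM in pd1245, and at 9.67, 6.49 and 8.88 CPM in EK. The 3 lines did not overlap, with pd1116 lowest and pd1245 highest.

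pd1116 HP lay below EK HP (log2 fold change −2.14, SE 0.43, adjusted p = 0.0071) and below pd1245 HP (−3.49, SE 0.42, adjusted p = 2.09e-05), and both calls held under each alternative tried. pd1245 HP lay above EK HP (1.35, SE 0.36, adjusted p = 0.0398), a call that was lost without any one of the 6 libraries except pd1245 HP replicate 1, with an adjusted p of up to 0.184, without EK HP replicate 2, and with DESeq2 (adjusted p = 0.0529).

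On LP irg1l lay at 8.76, 2.82 and 17.2 CPM in pd1116, at 11.8, 17.9 and 12.7 CPM in pd1245, and at 6.40, 6.68 and 5.97 CPM in EK. pd1245 lay above EK without overlap (1.16, SE 0.37, adjusted p = 0.0239), a call that was lost without any 1 of the 3 EK LP libraries or pd1245 LP replicate 2, where the adjusted p reached 0.0926. The pd1116 LP libraries overlapped with both other lines, and irg1l was called against neither. Within pd1116 irg1l rose on LP (2.38, SE 0.43, adjusted p = 0.00277), and this held under each alternative tried. The diet difference was larger in pd1116 than in pd1245 by 2.96 (SE 0.55, adjusted p = 0.0264). Without any one of the pd1116 HP libraries, pd1116 LP replicate 1 or 3, or pd1245 HP replicate 3, that call was lost, with adjusted p from 0.0528 to 0.0794. Against EK the interaction was 2.77 with an adjusted p of 0.123.

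**Figure D5:**
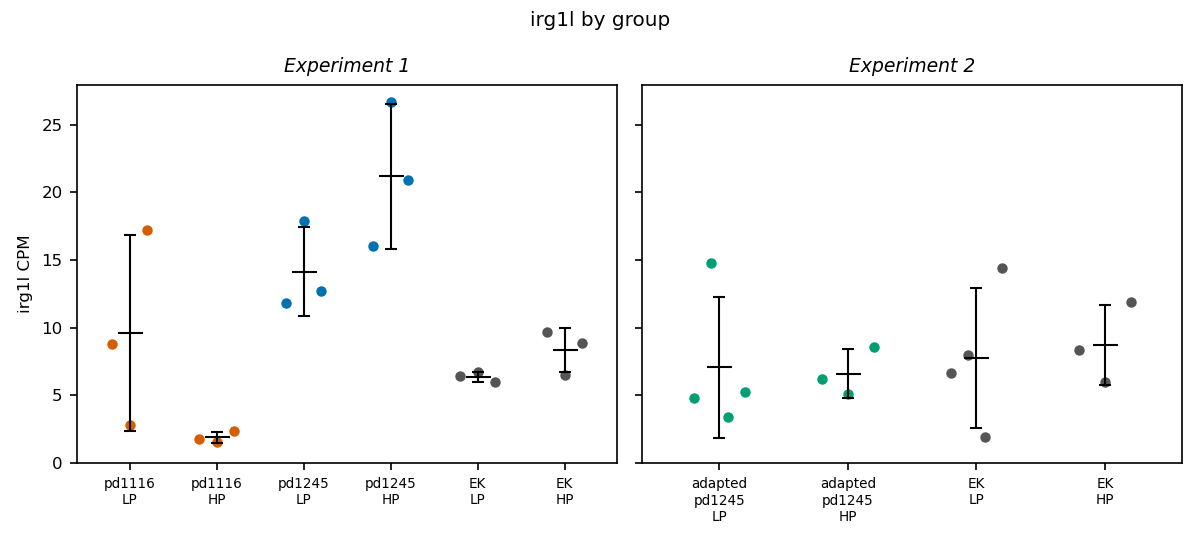
irg1l in CPM by group in both experiments; points are libraries, bars the mean ± SD (n = 3, or 4 on LP in experiment 2). In experiment 1 on HP the 3 lines separate, with pd1116 at 1.52 to 2.32 CPM and pd1245 at 15.999 to 26.7 CPM, and in experiment 2 adapted pd1245 and EK overlap on both diets.

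In experiment 2 no interferon response gene was called between adapted pd1245 and EK on either diet. parp14rs1 lay at 3.11, 6.01, 3.27 and 4.23 CPM in adapted pd1245 LP, against 3.78, 2.52, 3.92 and 4.40 CPM in EK LP (log2 fold change 0.20, SE 0.24, adjusted p = 0.929). stat2 lay at 14.3, 14.7, 13.1 and 19.6 CPM in adapted pd1245 LP, against 8.45, 13.7, 7.44 and 9.86 CPM in EK LP (0.64, SE 0.28, adjusted p = 0.382). Groups overlapped for both. No member was called in that comparison, 0 of 17 by edgeR's quasi-likelihood test and 0 by DESeq2, with 1 at an unadjusted p under 0.05 (stat2), where 2.36% of all genes were called. The 2 experiments differ in library method and depth, and no test was made between them.

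Here too the effectors peaked in few libraries, mostly on HP: 13 members reached 5 or more times their median in replicate 3 of adapted pd1245 HP, 7 in replicate 1 of EK HP, and 1 each in replicates 1 and 2 of adapted pd1245 LP (pkz and ifit8). pkz lay at the floor in experiment 2, with no more than 3 counts in any library. ifit15 lay at 2.19, 0.886 and 71.4 CPM in adapted pd1245 HP, against 11.8, 0.922 and 0.274 CPM in EK HP. isg15 lay at 2.00, 2.04 and 114 CPM in adapted pd1245 HP, against 29.2, 3.23 and 1.64 CPM in EK HP. RSAD2, which missed the filter, lay at 0.381, 0.354 and 55.05 CPM in adapted pd1245 HP, against 7.52, 0.461 and 0.0912 CPM in EK HP. Replicate 3 of adapted pd1245 HP was the highest library for all 3 genes and for 24 of the 34 members detected, and replicate 1 of EK HP was next for these 3. For all genes the share that were highest in replicate 3 of adapted pd1245 HP was not taken. The summed level of the members was 79.6, 71.3 and 490 CPM in adapted pd1245 HP and 154, 88.9 and 82.7 CPM in EK HP.

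IRF7, a transcription factor that in mammals amplifies interferon production, stood out in the first of these libraries only. It lay at 4.95, 5.05 and 30.4 CPM in adapted pd1245 HP, against 11.0, 9.22 and 7.85 CPM in EK HP, where replicate 1 was highest by little. In experiment 1 IRF7 had peaked only at 1.82 times its median. parp12b, another PARP of the antiviral kind, and irf9 peaked in experiment 2 at 1.17 and 1.83 times their medians, with irf9 highest in EK HP replicate 2, the shallow library. Macrophage markers in the 3 adapted pd1245 HP libraries, in replicate order, summed to 104, 90.9 and 121 CPM, neutrophil markers to 159, 104 and 135 CPM, and T and NK cell markers to 88.7, 87.8 and 117 CPM. Only 9 of the 21 rows of the T and NK cell list passed the filter in experiment 2. There cd4-1, cd8a, cd8b, lck and ZAP70 did not exceed 10 counts in any library, so that sum came mostly from other rows. Their part in the peak was not tested.

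On HP no member was called between adapted pd1245 and EK, 0 of 17 by edgeR and 0 by DESeq2, with 2 at an unadjusted p under 0.05 (xaf1 and ifit15), where 1.44% of all genes were called. Between diets in the adapted line ifit15 fell on LP, to 0.758, 1.32, 0.109 and 0.0847 CPM, against the HP values above (−5.35, SE 1.23, adjusted p = 0.0315), with overlapping libraries. 1.88% of all genes were called there, 0.78% lower. The call was lost without adapted pd1245 HP replicate 3, which left −1.34 and an adjusted p of 0.546 and 0 members called. It was also lost without adapted pd1245 LP replicate 2, 3 or 4, with adjusted p up to 0.0941, and there were 4 members called without HP replicate 1, 10 without HP replicate 2, and none without LP replicate 3 or 4. In EK no member was called between diets, 0 of 17 by edgeR and 0 by DESeq2, with 4 at an unadjusted p under 0.05, where 0.078% of all genes were called. The interaction of diet and line gave 0 of 17 by edgeR and 0 by DESeq2, with 1 at an unadjusted p under 0.05 in edgeR and 0% of all genes called.

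Of 12 tested sensors and adaptors upstream in the pathway, 3 were lower and 1 higher in pd1245 LP against EK LP, a share near the 31.8% called of all genes. mavs, the mitochondrial adaptor of RNA sensing, was lower (−0.50, adjusted p = 0.00276), as was tlr3, a receptor for double-stranded RNA (−1.02, adjusted p = 0.00606). TBK1, a kinase that activates IRFs, was higher (0.41, adjusted p = 0.00338). Of 12 tested interferons and receptors with their kinases, 1 was lower, the interferon gamma receptor ifngr2 (−0.44, adjusted p = 0.00338), a share below that of all genes. In pd1116 LP against EK LP none of these 24 genes was called by edgeR or by DESeq2, with 2 sensors or adaptors and 1 interferon or receptor gene at an unadjusted p under 0.05, where 6.68% of all genes were called.

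Other genes of antigen presentation fell too. Of 18 tested, 9 were lower and none higher in pd1245 LP against EK LP, where 15.8% of all genes were lower. cd74a, an invariant chain that guides MHC class II, averaged 4.65 ± 0.752 CPM in pd1245 LP and 14.8 ± 1.74 CPM in EK LP (SD, n = 3 each; −1.65, adjusted p = 4.77e-05). Its paralog cd74b averaged 3.06 ± 0.121 CPM in pd1245 LP and 8.67 ± 0.769 CPM in EK LP (−1.50, adjusted p = 2.99e-05). PSME1, a proteasome activator induced by interferon gamma in mammals, averaged 8.73 ± 0.512 CPM in pd1245 LP and 13.6 ± 1.23 CPM in EK LP (−0.64, adjusted p = 0.00124). In pd1116 LP against pd1245 LP 5 of the 18 were higher and none lower, among them cd74b (1.02) and cd74a (0.93), where 9.89% of all genes were higher. Against EK LP, pd1116 LP had 2 of the 18 higher and 1 lower, where 6.68% of all genes were called. The whole list summed to 371 to 426 CPM in pd1116 LP and 341 to 392 CPM in pd1245 LP, against 437 to 456 CPM in EK LP. Within pd1116, 4 of the 18 were lower on LP than on HP and none higher, where 4.04% of all genes were lower.

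Lists of markers of other cell types differed in how many were called in pd1245 LP against EK LP, where 31.8% of all genes were called and 15.8% were lower. Enterocyte markers, 11 of 12 tested lower and none higher, summed to 2122 to 2210 CPM in pd1245 LP against 3613 to 4020 CPM in EK LP. T and NK cell markers, 6 of 15 lower and 1 higher, summed to 151 to 189 CPM in pd1245 LP against 157 to 168 CPM in EK LP, which overlap, with cd8a and cd8b at no more than 5 counts in any library of experiment 1. Macrophage markers, 1 of 15 lower and none higher, summed to 79.7 to 114 CPM in pd1245 LP against 98.2 to 104 CPM in EK LP, which overlap. That list held several rows each of MFAP4 and MPEG1. Neutrophil markers, 2 of 8 higher and 1 lower, summed to 90.7 to 109 CPM in pd1245 LP against 70.1 to 87.96 CPM in EK LP, and inflammatory cytokines, 3 of 16 higher and none lower, included il1b (1.95, adjusted p = 0.0148). B cell markers, of which 0 of 6 tested were called by edgeR and 0 by DESeq2, with 1 at an unadjusted p under 0.05, summed to 33.2 to 34.7 CPM in pd1245 LP against 32.2 to 34.4 CPM in EK LP. In experiment 1 cd79a did not exceed 10 counts in any library and cd79b did not exceed 6, so this sum came mostly from other rows. Epidermis markers, 4 of 9 lower and none higher, summed to 13224 to 14650 CPM in pd1245 LP against 15271 to 16215 CPM in EK LP. The part of these cell types in the lower members was not tested.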

How the data were processed

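RNA from whole larvae was sequenced in 32 libraries, 18 in experiment 1 (strand-specific poly(A) libraries) and 14 in experiment 2 (stranded single-end libraries with molecular identifiers). The authors deposited raw read counts per gene for experiment 1, made with Trim Galore 0.6.5, STAR 2.7.3a and HTSeq 0.11.1 on GRCz11, per the submitters' processing notes. For experiment 2 the authors deposited expected counts, of which 78.3 to 84.8% of the values above 0 were whole within 0.005, made with fastp 0.24.0, STAR 2.7.11 and featureCounts of Subread 2.1.1, per the submitters' processing notes. These were rounded to whole numbers, and 92 spike-in rows were left out. The CPM columns that the authors deposited for experiment 2 were not used. The annotation release, the strand setting and any collapsing of molecular identifiers are not given in the sources used here. Rows of experiment 1 that name no gene held 14.6 to 16.8% of the counts and were left out.

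Each experiment was fitted once over all its groups with edgeR 4.0.16 (R 4.3.3): TMM scaling, filterByExpr, quasi-likelihood F test, prior count 0.125, and Benjamini-Hochberg adjustment over 22742 genes in experiment 1 and 16671 in experiment 2. The CPM values printed are counts divided by the scaled library size. The test was tried on simulated data. Alternatives were DESeq2 1.42.0, RLE size factors, no filter, the replicate number as a block, only the groups compared, and leaving out each library. Any member could be named, and values in every library are given for up to 6 called members with the smallest p in each comparison and for members called in 3 or more of the 13 pairwise comparisons. Of other lists, up to 3 called genes are named. In those lists a symbol that was not found was tried again without its paralog ending. Every row with the matching symbol was counted, so 1 listed gene can stand for several rows. The members and lists were chosen with earlier results of these data known.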

Additional observations from a re-analysis of the deposited data

Results flagged for a closer look

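In experiment 2, replicate 2 of adapted pd1245 LP lay far from the other 3 libraries of its group for 3 members: isg15 at 4.53 CPM, ifi44a1 at 2.72 CPM and irg1l at 14.8 CPM. 34 groups of 4 libraries were examined by Dixon's criterion, and chance flags about 1 in 20.

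The diet difference differed between pd1245 and EK by −0.84 on the log2 scale for stat2, by −1.01 for helz2b and by −0.93 for parp14rs1, each by the interaction term of the edgeR fit. Between pd1116 and pd1245 it differed by 1.24 for helz2b, by 0.90 for parp14rs1 and by 2.96 for irg1l.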

How the results depend on the processing

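Of 49 called values of single members, none changed direction under any alternative and 10 were called under all. RLE size factors kept 49 of 49, no filter 48 of 49, the replicate block 41 of 49, DESeq2 45 of 48, only the groups compared 18 of 45, and leaving out 1 library 225 of 340. A value was left out of a total where its gene was not tested, or had no adjusted p, under that alternative. With DESeq2 the number of members called became 0 in pd1245 HP against EK HP, 1 in pd1116 LP against EK LP, 4 in pd1116 HP against pd1245 HP, 1 in the interaction of pd1116 and EK, and 0 between diets in adapted pd1245. With no filter it became 5 in pd1116 LP against EK LP, 4 between diets in pd1116, 1 in adapted pd1245 HP against EK HP, and 10 between diets in adapted pd1245. With only the groups compared it became 2 in pd1116 LP against pd1245 LP, 8 in pd1116 HP against pd1245 HP, 0 between diets in pd1245, 1 in the interaction of pd1245 and EK, 1 in that of pd1116 and EK, and 0 in that of the alleles. The number of all genes called under each alternative, or with 1 library left out, is not given here or above. A change in these counts of members can therefore not be told from a change over all genes. The cause was not tested.

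No pair of groups, among 15 in the first experiment and 6 in the second, had all its same-number correlations above 0.1. That check cannot show that libraries with the same replicate number were independent, for instance of a shared tank or clutch. With the replicate block the number of members called became 1 in pd1116 LP against EK LP, 1 in the interaction of pd1245 and EK, 1 in that of the alleles, and 0 between diets in adapted pd1245.

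Leaving out 1 library gave 4 to 8 members in pd1245 LP against EK LP, 0 to 1 in pd1245 HP against EK HP, 0 to 10 in pd1116 LP against EK LP, 1 to 2 in pd1116 HP against EK HP, 9 to 21 in pd1116 LP against pd1245 LP, and 1 to 5 in pd1116 HP against pd1245 HP. Between diets it gave 1 to 6 in pd1116, 2 to 4 in pd1245 and 0 to 10 in adapted pd1245. In the interactions it gave 1 to 3 for pd1245 and EK, 0 to 1 for pd1116 and EK, and 0 to 3 for the alleles. In experiment 2, 17 of 35 members passed the filter on low counts; helz2b had a median of 0.449 CPM there and of 12.6 CPM in experiment 1.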

Other observations

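Some genes related to the list, or possibly on it under another symbol, are given here as values only. They were chosen after their values were seen. SOCS1, a suppressor of cytokine signalling, lay at 12.6, 19.8 and 43.8 CPM in pd1245 LP, against 4.16, 3.75 and 7.14 CPM in EK LP. The highest of these was the library that stood apart, and the groups did not overlap. This row may stand for the listed socs1a, since the gene table writes some symbols without their paralog ending. It was not tested as a member.

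ifi44a5 lay at 0.0410, 0.0386 and 0.113 CPM in pd1245 LP and at 0.115, 0 and 0 CPM in pd1245 HP, against 2.48, 2.89 and 3.24 CPM in EK LP and 2.25, 2.05 and 2.82 CPM in EK HP of experiment 1. In experiment 2 ifi44a5 lay at 1.59 to 2.63 CPM in adapted pd1245 and at 0.903 to 2.46 CPM in EK. The pd1245 and EK libraries did not overlap in experiment 1, and those of adapted pd1245 and EK did in experiment 2. The values of ifi44a5 in pd1116 are not given here.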
